A study of Homo sapiens with 6 samples.

Results

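ZNF genes encode zinc finger proteins, most of them DNA-binding proteins built from tandem C2H2 fingers. The genes described here were all protein-coding rows whose symbol was ZNF followed by digits and at most 1 letter, and whose mean over the 4 RNA-seq libraries was at least 50 normalised read counts. There were 263 of them, out of 369 protein-coding ZNF rows and 14574 rows in all. The mean level chose the genes, so their level is a description and carries no test. It ran from 50.02 for ZNF100 to 1661 for ZNF121, with a median of 131, against a median of 180 in the 9190 other protein-coding genes of at least the same level. At the threshold, ZNF100 (50.02) and ZNF724 (50.3) stood just inside, and ZNF430 (49.5) and ZNF628 (49.5) just outside.

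The cells were HCT116, an established human colorectal carcinoma line, either carrying a knockout (KO) of LARP1 or parental. The LARP1 protein binds the cap and first pyrimidines of TOP (5′ terminal oligopyrimidine) mRNAs, and it stabilises those mRNAs when the mTOR kinase is inhibited. Cells of both genotypes had received TAK228, an mTOR kinase inhibitor, at 250 nM for 48 h, with fresh drug after 24 h, so no untreated cells were compared. RNA came from the pooled gradient fractions below the polysomes, from the small ribosomal subunit to the monosome, so a level here is a level in that pool and not in the whole cell. Retention in the pool and mRNA abundance cannot be told apart. The labels do not say how many KO clones were used or which part of LARP1 was edited. Differences between genotypes and between clones therefore cannot be told apart in any comparison here. There were 2 KO libraries, 2 parental libraries and 2 libraries of transcription start sites (TSS) made from the parental RNA. The labels name biological replicates but no separate cultures, so the spread between libraries, on which the p-values rest, may be technical.

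Most vertebrate ZNF proteins carry an array of C2H2 fingers, each folding around a zinc ion held by a pair of cysteines and a pair of histidines. Many also carry a KRAB box, which recruits the co-repressor TRIM28 (KAP1) and with it the histone methyltransferase SETDB1 and heterochromatin proteins, and numerous KRAB zinc finger proteins bind transposable elements. Many of the human genes lie in clusters of tandem duplicates, chromosome 19 holding more of them than any other chromosome. Because these copies resemble each other, reads can be shared between paralogs, and values of close paralogs are uncertain to that extent.

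Depth was 22039174 and 21388111 reads for the KO, 19038642 and 25323973 reads for the parental RNA-seq, and 26955481 and 24446561 reads for the TSS libraries, of which mitochondrial ribosomal RNA took 62.4% to 68.9%. The median ZNF gene rested on 182 and 164 reads in the KO libraries and on 102 and 112 in the parental libraries, and the thinnest on 44 and 38 in the KO libraries and on 17 and 20 in the parental libraries. LARP1 itself fell, with 356 and 284 normalised read counts in KO libraries against 633 and 770.3 in parental libraries (-1.13 in log2, limma adjusted p = 2.86e-09), so its mRNA was still present. Of 7 epithelial markers 5 were listed, KRT18 with 5050 and 4533 in KO libraries against 5249 and 5060 in parental libraries, while none of 4 leukocyte or 3 endothelial markers was in the table and of 4 fibroblast markers only COL1A1, with 38.2 and 13.0 in KO libraries against 21.5 and 12.2 in parental libraries. Of the epithelial markers KRT19, EPCAM and CDH1 fell (log2 fold changes of -0.85, -0.93 and -0.88) and KRT8 and KRT18 were not called. CDH1 lost its call without KO replicate 2 or parental replicate 2 (limma adjusted p of 0.0717 and 0.352).

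Of the 263 ZNF genes, 38 (14.4%) were lower in the KO pool and 22 (8.37%) higher at a limma adjusted p under 0.05, and 203 passed in neither direction. Over all 14561 genes tested, 25.1% were lower and 3.77% were higher. Among the 9190 other protein-coding genes of at least the same level, 2648 were lower and 304 higher. Every log2 fold change given here is the difference of mean log2(normalised read count + 1), KO minus parental, a scale that understates the change of low genes, while a plain fold is a ratio of group means, or of the KO mean to a floor of reads. The median log2 fold change was -0.10 for the ZNF genes (quartiles -0.36 and 0.13) and -0.28 for the other protein-coding genes (quartiles -0.58 and -0.02), a difference of medians of 0.18 that was not tested. Of the 263 ZNF genes, 180 lay above the median of the other genes. The counts of calls depended on single libraries: 51 were lower and 12 higher without KO replicate 1, 18 and 21 without KO replicate 2, 15 and 4 without parental replicate 1, and 10 and 8 without parental replicate 2.

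How many ZNF genes were called in each direction depended on the scaling. When each library was centred on its own median gene, 23 ZNF genes were lower and 71 higher, with a median of 0.21, against 1740 lower and 1644 higher of the other protein-coding genes, with a median of 0.03. After centring, 16.2% of all genes tested were lower and 14.6% higher. The difference of medians was again 0.18. The 23 genes lower after centring were among the 38 above, and all 22 higher genes were also called higher after centring. The median over all genes tested was -0.29 with the deposited scaling, so a ZNF gene with no difference in deposited units stood above the typical gene.

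**Figure D1:**
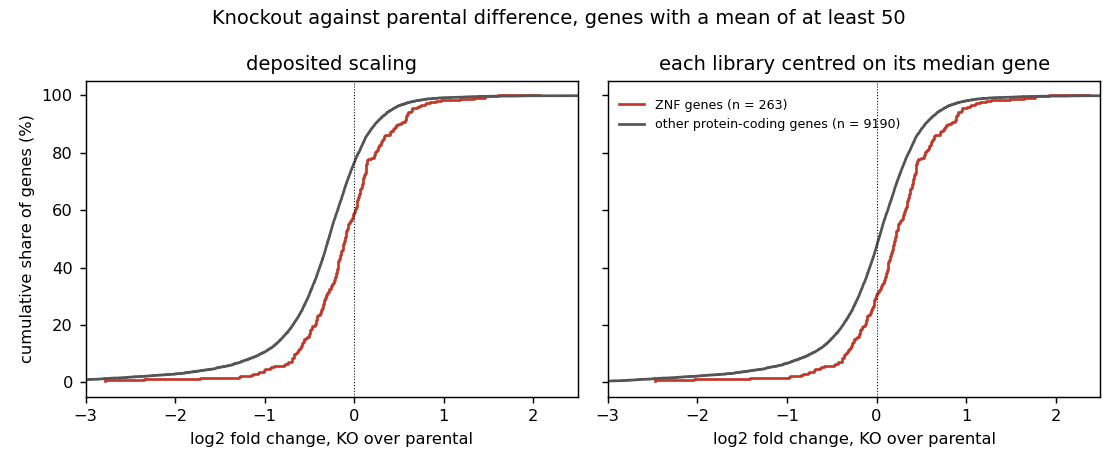
Cumulative share of genes (percent, vertical axis) by log2 fold change, KO over parental (horizontal axis, cut at -3 and 2.5), for 263 ZNF genes (red) and 9190 other protein-coding genes (grey), with the deposited scaling (left) and with each library centred on its median gene (right). The red curve lies to the right of the grey one through the middle of both panels, with medians of -0.10 and -0.28 on the left and of 0.21 and 0.03 on the right.

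Both KO libraries lay below both parental libraries for 86 ZNF genes and above both for 50, and the groups overlapped for 127. Over all genes tested, both KO libraries lay below for 50.4% and above for 12.4%. The summed level of the 263 genes was 50362 and 42394 normalised read counts in the KO libraries, 49142 and 53401 in the parental libraries, and 46707 and 49442 in the TSS libraries, so KO and parental sums overlapped. KO replicate 1 read above KO replicate 2 for 241 of the 263 genes, by a median of 0.25 log2 units (0.23 in the other protein-coding genes), and its part in the counts of calls was not tested beyond leaving each library out. The share of protein-coding reads outside the mitochondrial genome that fell on the ZNF genes was 1.47% and 1.43% in KO libraries against 0.655% and 0.689% in parental libraries. A list of TOP genes (ribosomal proteins, translation factors, RACK1, TPT1, PABPC1 and NAP1L1) took 18.95% and 19.7% of those reads in KO libraries against 53.7% and 52.6% in parental libraries. With the TOP list left out of the denominator, the ZNF share was 1.81% and 1.78% in KO libraries against 1.41% and 1.45% in parental libraries.

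The ZNF median lay above that of the other protein-coding genes in each of 4 ranges of level. For 92 ZNF genes between 50 and 100, 7 were lower and 8 higher with a median of -0.08, against 479 lower and 61 higher of 2098 other genes with a median of -0.28. For 92 ZNF genes between 100 and 200, 13 were lower and 8 higher with a median of -0.09, against 712 lower and 95 higher of 2963 other genes (-0.27). For 57 between 200 and 400, 11 were lower and 4 higher with a median of -0.08, against 652 lower and 71 higher of 2411 (-0.26). The 22 most abundant ZNF genes, at 400 or more, held 7 lower and 2 higher genes with a median of -0.30, against 805 lower and 77 higher of 1718 other genes (-0.37). A gene can enter through 1 group alone. The parental mean was under 50 for 8 of the 263, of which 4 were called higher (ZNF134, ZNF608, ZNF100 and ZNF567). The KO mean was under 50 for 9, of which 4 were called lower, ZNF580 and ZNF695 among them. The level rule admitted such genes only through the group where they were higher.

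ZNF277 fell the most. It encodes a small C2H2 protein that binds the ribosomal protein uS5, and the gene (ENSG00000198839.9) lies on the plus strand of chromosome 7, from 112206588 to 112343096 in GRCh38. It had 92.4 and 84.0 normalised read counts in the KO libraries, against 576 and 653 in the parental and 532 and 532 in the TSS libraries, a 6.97-fold lower mean in the KO (log2 fold change -2.79, SE 0.20, limma adjusted p = 5.4e-42). ZNF581 (ENSG00000171425.9, chromosome 19, 55635459 to 55645622, plus strand) had 167 and 126 in the KO libraries, against 716 and 762 in the parental and 652 and 687 in the TSS libraries (log2 fold change -2.34 with an SE of 0.19, limma adjusted p = 6.75e-34). For both genes the KO libraries lay far below all 4 libraries of parental RNA, and both are short arrays, with 3 and 4 fingers.

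ZNF275, on the X chromosome, had 72.6 and 64.2 normalised read counts in the KO libraries against 215 and 240.1 in the parental libraries (log2 fold change -1.72 with an SE of 0.23, limma adjusted p = 1.73e-12). ZNF524 gave 64.2 and 52.6 in the KO libraries against 164 and 126 in the parental libraries (-1.29 in log2, limma adjusted p = 2.66e-06). ZNF580 gave 33.6 and 29.4 in the KO libraries against 66.0 and 91.4 in the parental libraries (-1.28 in log2, limma adjusted p = 0.000157). Lack of overlap between KO and parental libraries was a condition for naming these 3 genes. ZNF580 rested on only 44 and 43 reads in the KO libraries against 49 and 75 in the parental libraries.

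ZNF165, a cancer and testis antigen, gave 76.4 and 62.1 normalised read counts in KO libraries against 182 and 132 in parental libraries, and ZNF865 gave 92.4 and 100.4 against 194 and 232 (log2 fold changes of -1.16 and -1.13). ZNF695, a KRAB gene, gave 44.3 and 36.9 in KO libraries against 75.4 and 98.7 in parental libraries (-1.08 in log2, limma adjusted p = 0.000991). Its call was lost without parental replicate 2 (limma adjusted p = 0.0945, within a range of 0.000834 to 0.0945 over the alternatives). The other 30 genes called lower fell by less than ZNF695.

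**Figure D2:**
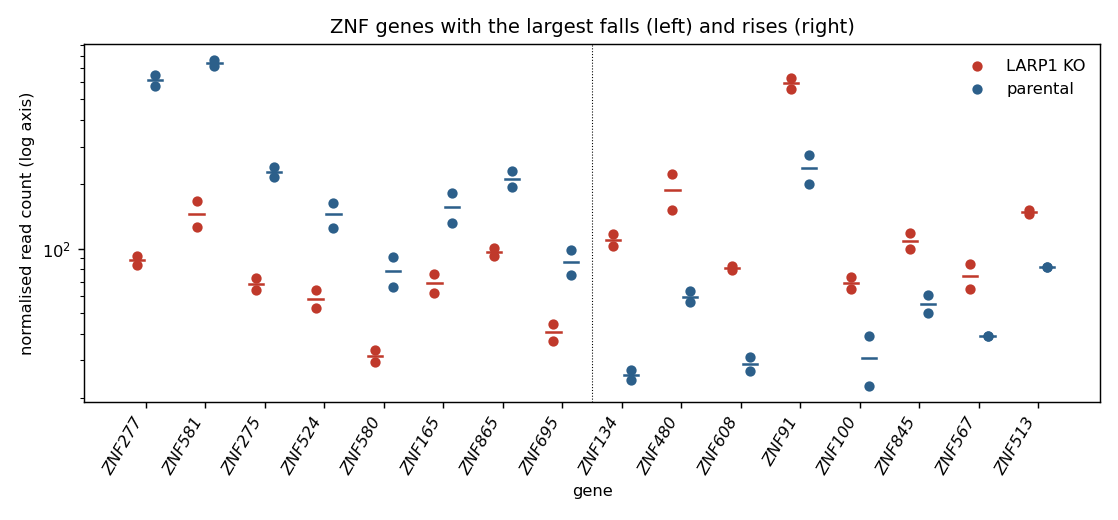
Normalised read count (vertical log axis) in each KO library (red, left of each pair) and parental library (blue, right) for the 8 called ZNF genes with the largest falls and the 8 with the largest rises. Each point is 1 library and each bar the mean of 2. Only called genes with no overlap of KO and parental libraries were eligible, so the points of the 2 groups are apart by choice. The values run from ZNF277 (92.4 and 84.0 against 576 and 653) to ZNF134 (118 and 103 against 26.9 and 24.4).

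ZNF134, a C2H2 gene of the large cluster at the end of chromosome 19, rose the most. With a parental mean under 50, it entered the set only through its KO values. The gene (ENSG00000213762.11, 57614233 to 57624723, plus strand, 10 fingers) had 118 and 103 normalised read counts in the KO libraries against 26.9 and 24.4 in the parental and 28.7 and 24.2 in the TSS libraries, 4.30-fold higher in the KO (log2 fold change 2.06, SE 0.29, limma adjusted p = 3.07e-11). These were 154 and 151 reads in the KO libraries against 20 and 20 in the parental libraries. ZNF480 on chromosome 19 had 224 and 151 normalised read counts in the KO libraries against 63.3 and 56.1 in the parental libraries (log2 fold change 1.61, limma adjusted p = 4.15e-10). Both genes were low in all 4 libraries of parental RNA, while the median ZNF gene had 139 and 112 in the KO libraries against 137 and 137 in the parental libraries.

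ZNF608, the gene with 1 finger among them, had 79.4 and 82.6 normalised read counts in the KO libraries against 31.0 and 26.8 in the parental libraries (log2 fold change 1.46, limma adjusted p = 1.27e-05). ZNF91, a KRAB protein of 31 fingers that represses SVA retrotransposons, had 631 and 561 in the KO libraries against 201 and 274 in the parental and 272 and 317 in the TSS libraries (log2 fold change 1.34 with an SE of 0.18, limma adjusted p = 6.9e-12). Summed over the 4 RNA-seq libraries ZNF91 had the most reads of the 22 genes that rose, with 826 and 822 reads in the KO libraries against 149 and 225 in the parental libraries. ZNF100 gave 73.3 and 64.9 normalised read counts in KO libraries against 22.9 and 39.0 in parental libraries (log2 fold change 1.18), and ZNF845 gave 118 and 99.7 against 49.8 and 60.9 (0.97). ZNF567 gave 84.8 and 64.9 in KO libraries against 39.0 and 39.0 in parental libraries (0.91), and ZNF513 gave 151 and 145 against 82.1 and 81.7 (0.85). ZNF608, ZNF100 and ZNF567, with parental means under 50, also entered the set only through their KO values. The calls of ZNF134, ZNF480, ZNF608 and ZNF91 were kept under all 13 alternatives. Those of ZNF100, ZNF845 and ZNF513 were lost without parental replicate 1 (limma adjusted p of 0.105, 0.0737 and 0.0555) and that of ZNF513 also without parental replicate 2 (0.0684). That of ZNF567 was lost without KO replicate 1, parental replicate 1 or parental replicate 2 (0.111, 0.0581 and 0.0687).

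LARP1 reads the base after the cap, usually C in a TOP mRNA, and the pyrimidines that follow, so the annotated starts of the ZNF genes were examined. The windows below, from the RefSeq start table on GRCh38.p14, run from 10 bases before the annotated start to 20 bases from it, in the direction of transcription, and capitals mark the longest run of pyrimidines in the window. The first 8 are the genes that fell and whose start is a C opening a run of at least 5 pyrimidines. ZNF286A and ZNF282 have such a start and did not fall. ZNF275 and ZNF865 fell without one, and ZNF134, ZNF608 and ZNF91 are among the largest rises.
ZNF277 (chr7:112206685-112206714, plus strand): ctgcggCCCTCCCTTTTCTTTTCTgccggg
ZNF581 (chr19:55643639-55643668, plus strand): ttcggCTTCTCTCTTTCggccggcgccgcc
ZNF33B (chr10:42638551-42638580, minus strand): ttccgCCTTTCCTTTTgtttgtctcacgtt
ZNF446 (chr19:58476342-58476371, plus strand): tcgctcaggCCTTTCCTaccctcaacgccg
ZNF276 (chr16:89720992-89721021, plus strand): cggcgacgggCCCCCTCCgcgcgtactgcg
ZNF561 (chr19:9621213-9621242, minus strand): ccaccgccaTCTTTTCCggcgctggctcct
ZNF436 (chr1:23369817-23369846, minus strand): ttttccatcaCTTCCCTCTCCaaggctaca
ZNF496 (chr1:247331848-247331877, minus strand): gggctccggCCTTTCCTTTCCTCggcgtcc
ZNF286A (chr17:15699742-15699771, plus strand): agaagttcgTCCCCTTTgtgaggcccggga
ZNF282 (chr7:149195536-149195565, plus strand): ggaaaacgTTCTTCTTCTCCCTggccgacc
ZNF275 (chrX:153334143-153334172, plus strand): tcacggCTCCggaaacgcgccgcggggctg
ZNF865 (chr19:55605637-55605666, plus strand): agggggcggcaCTTCCggtcgggccctcgg
ZNF134 (chr19:57614232-57614261, plus strand): taTCTTCCTCgcggtggacatcttgtcggc
ZNF608 (chr5:124748805-124748834, minus strand): tatagaggctgagagCTTCTTTTgctccac
ZNF91 (chr19:23395452-23395481, minus strand): ctgggcctttgTCTCTCgctgccgccggag
In ZNF277 the pyrimidines ran for 14 bases from the annotated start and in ZNF581 for 7.

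A C start with a run of at least 5 pyrimidines was annotated for 14 of the 226 ZNF genes that had a RefSeq start, and for 558 of 10195 (5.47%) protein-coding genes of the table. Of these 14, 8 fell (ZNF277, ZNF581, ZNF33B, ZNF446, ZNF276, ZNF561, ZNF436 and ZNF496), 1 rose (ZNF286A) and 5 passed in neither direction, with a median log2 fold change of -0.58. Of the 212 ZNF genes with another start, 24 fell and 18 rose, with a median of -0.09. The other protein-coding genes had 286 lower and 7 higher of 455 with such a start (median -0.76), and 1893 lower and 247 higher of 7220 without it (median -0.27). After centring, 5 of the 14 were lower and 3 higher (median -0.27). ZNF277, ZNF581 and ZNF33B kept their calls under all 13 alternatives. Of the 14, 3 fell without KO replicate 2 (median -0.40), 3 without parental replicate 1 (-0.51) and 3 without parental replicate 2 (-0.55), and ZNF286A lost its call without parental replicate 1 or parental replicate 2 (limma adjusted p of 0.135 and 0.0846). The class was set with earlier results known and has no test, and an annotated start need not be the start used in these cells. Of the 14, 6 share at least 20% of their exon bases with another annotated gene. On the same strand, where reads cannot be told apart, ZNF286A shares 28.975% with AC005324.4, ZNF446 28.8% with ZNF324, ZNF280D 27.3% with AC090517.4, ZNF581 23.4% with ZNF580 and ZNF358 20.2% with AC008878.1. On the opposite strand ZNF276 shares 31.0% with FANCA and ZNF446 23.0% with SLC27A5. Whether reads were told apart there depends on the strand setting of the counting, which is not given. Of 47 ZNF genes that are named or have such a start, 28 overlap the exons of another annotated gene, 12 of them those of a gene in the table.

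Among the 14 genes a longer run did not always go with a larger fall. ZNF33B, a KRAB gene of 16 fingers, fell with a run of 6 (371 and 296 normalised read counts in KO libraries against 649 and 615 in parental libraries, log2 fold change -0.93, limma adjusted p = 2.19e-06). ZNF280D, with a run of 18, gave 201 and 192 in KO libraries against 273 and 261 in parental libraries (-0.44, limma adjusted p = 0.0837). ZNF282, with a run of 12, gave 276 and 261 in KO libraries against 210.0 and 180.4 in parental libraries (0.46, limma adjusted p = 0.0694). ZNF286A, with a run of 7, rose (534 and 425 in KO libraries against 283 and 305 in parental libraries, 0.70, limma adjusted p = 0.00103). Its close copy ZNF286B, under the level of 50, also rose (64.2 and 55.3 in KO libraries against 37.7 and 28.03 in parental libraries, limma adjusted p = 0.0239), and reads of both copies can be shared. The call of ZNF286B was lost without KO replicate 1 or 2 (limma adjusted p of 0.131 and 0.0731) and without parental replicate 2 (0.274). The 4 others that passed in neither direction were ZNF185 (-0.44), ZNF57 (-0.12) and ZNF358 (0.23) beside ZNF280D, so that 3 of the 14 stood above 0.

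**Figure D3:**
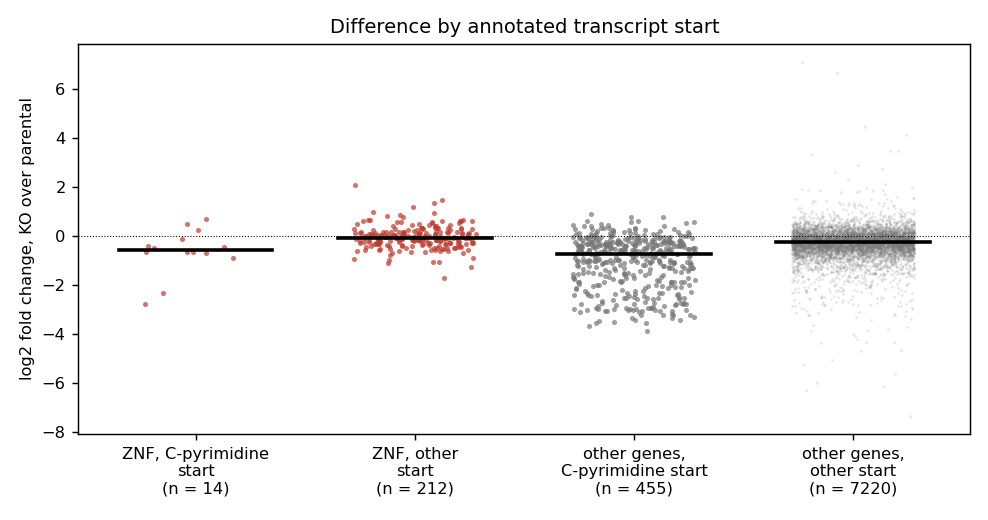
Log2 fold change, KO over parental (vertical axis), of single genes (points) by annotated start, for ZNF genes (red) and other protein-coding genes (grey) of at least 50 normalised read counts. A C-pyrimidine start is a C opening a run of at least 5 pyrimidines, and black bars are medians, at -0.58, -0.09, -0.76 and -0.27 from left to right.

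Of the 60 genes with 1 to 5 fingers 17 fell (28.3%), a share near the 28.8% of the other protein-coding genes and the 25.1% of all genes tested, while 4 (9.76%) of the 41 with 16 or more fingers fell. The difference between these classes was not tested. Fingers were counted in the protein translated from 1 GENCODE coding sequence per gene. A KRAB-like pattern was sought in the translations of all protein-coding transcripts of the gene. By these criteria, 125 of the 263 genes had C2H2 fingers and a KRAB match, and 133 had fingers and no such match. Another 4 had no finger by the finger pattern (ZNF185, ZNF330, ZNF503 and ZNF839), and ZNF862 had a KRAB-like match alone. Of the genes with a KRAB match 12 fell and 12 rose (median -0.05), and of those without it 25 fell and 10 rose (median -0.15). The pattern misses divergent boxes, so the second class holds KRAB genes too, ZNF480 among them. Without KO replicate 1, 17 fell and 6 rose with a KRAB match and 31 and 6 without it. Without KO replicate 2 these counts were 5 and 12 with a match and 13 and 9 without it, without parental replicate 1 they were 4 and 1 against 11 and 3, and without parental replicate 2 they were 1 and 4 against 9 and 4. After centring, 9 were lower and 35 higher with a match (median 0.26), and 14 and 36 without it (median 0.16). By finger number, 17 fell and 2 rose of 60 genes with 1 to 5 fingers (median -0.21), 11 fell and 8 rose of 86 with 6 to 10 (-0.08), 5 fell and 4 rose of 71 with 11 to 15 (-0.10), and 4 fell and 8 rose of 41 with 16 or more (0.05). After centring, the 41 long arrays held 4 lower and 17 higher genes, and the 60 short ones 9 lower and 12 higher. The 17 falls among genes with 1 to 5 fingers were 21 without KO replicate 1, 9 without KO replicate 2, 8 without parental replicate 1 and 6 without parental replicate 2. The 11 falls among genes with 6 to 10 fingers were 17 without KO replicate 1, 4 without KO replicate 2, 3 without parental replicate 1 and 1 without parental replicate 2. Without KO replicate 1 or parental replicate 1 the median of the 41 long arrays was -0.06, with 3 and 1 higher genes, and in every one of the 4 leave-one-out fits it stood above that of the 60 short arrays. Across the 263 genes, which are not independent replicates, log2 fold change and finger number had a Pearson r of 0.26 and a Spearman rho of 0.23, given as a description. The points share the same 4 libraries, and the r with log2 transcript length was 0.16. With the difference of TSS minus parental RNA-seq values, the r was 0.25 and the rho 0.29. That difference and the log2 fold change subtract the same parental values.

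**Figure D4:**
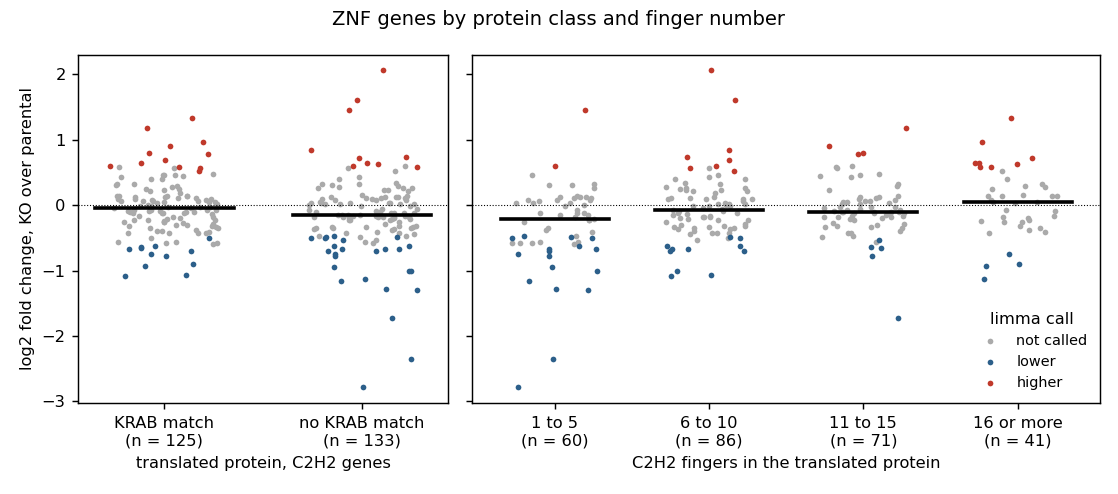
Log2 fold change, KO over parental (vertical axis), of single ZNF genes (points) by KRAB match (left) and by number of C2H2 fingers in the translated protein (right), coloured by limma call, with black bars at the medians. The medians by finger number were -0.21, -0.08, -0.10 and 0.05, and 8 of the 41 genes with 16 or more fingers were called higher.

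Of 3 members chosen for known roles at the ribosome, 2 fell and none rose, against 25.1% lower and 3.77% higher over all genes tested. The choice left out ZNF277, and 3 genes are too few to compare with these shares. ZNF622, a cytoplasmic factor of late large-subunit maturation (Rei1 in yeast), fell to 73.3 and 66.9 normalised read counts in KO libraries against 105 and 119 in parental libraries (log2 fold change -0.67, limma adjusted p = 0.0301). ZNF593, a nuclear factor of the same pathway (Bud20 in yeast), fell to 111 and 76.5 in KO libraries against 157 and 128 in parental libraries (-0.62, limma adjusted p = 0.0322). All 769 exon bases of ZNF593 lie within exons of AL391650.1 on the opposite strand, and the strand setting of the counting is not given in the sources used here. ZNF598, the ubiquitin ligase that marks collided ribosomes, gave 237 and 204 in KO libraries against 194 and 206 in parental libraries (0.14, limma adjusted p = 0.66). The ZNF622 and ZNF593 calls were lost after centring (limma adjusted p of 0.148 and 0.216), when ZNF598 was called higher, and 8 and 7 of their 13 alternatives lost them. Both were lost without KO replicate 2, parental replicate 1 or parental replicate 2 (for ZNF622 0.117, 0.108 and 0.306, and for ZNF593 0.362, 0.353 and 0.112).

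ZNF207 (BuGZ), a spindle protein that loads BUB3 at kinetochores, fell to 405 and 341 normalised read counts in KO libraries against 687 and 748 in parental libraries (log2 fold change -0.95 with an SE of 0.17, limma adjusted p = 8.15e-07). Its call was kept under all 13 alternatives. ZNF326, a subunit of a complex that links RNA polymerase II elongation to splicing, gave 93.2 and 73.7 in KO libraries against 119.8 and 126 in parental libraries (-0.56, limma adjusted p = 0.0671). ZNF638, a nuclear RNA-binding protein, was lower at 542 and 467 in KO libraries against 635 and 784 in parental libraries (-0.49, limma adjusted p = 0.0188). ZNF106, an RNA-binding protein, gave 246 and 219.9 against 238 and 252 (-0.08, limma adjusted p = 0.813). ZNF638 was called under 6 of its 13 alternatives and lost the call after centring (limma adjusted p = 0.199) and without KO replicate 2, parental replicate 1 or parental replicate 2 (0.1, 0.131 and 0.564).

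Of 5 chosen members that act as sequence-specific transcription factors, ZNF281 alone was called. The shares over all genes tested were 25.1% lower and 3.77% higher, and 5 genes are too few to compare with them. ZNF143, an activator of small nuclear RNA and many mRNA promoters, gave 108 and 112 normalised read counts in KO libraries against 88.8 and 139 in parental libraries (log2 fold change -0.02, limma adjusted p = 0.967). ZNF148 (ZBP-89) gave 164 and 146 in KO libraries against 149 and 162 in parental libraries (-0.01, limma adjusted p = 0.986), and ZNF24, a SCAN-domain repressor, 526 and 411 against 464 and 551 (-0.12). ZNF217, amplified in several carcinomas, gave 182 and 119 against 156 and 183 (-0.20). KO and parental libraries overlapped for these 4 genes, and their signs turned positive after centring (0.29, 0.30, 0.19 and 0.12). ZNF281, a paralog of ZNF148, was just past the threshold with 283 and 219 in KO libraries against 289 and 412 in parental libraries (-0.47, limma adjusted p = 0.0498), and 9 of 13 alternatives lost that call, among them leaving out KO replicate 2, parental replicate 1 or parental replicate 2 (limma adjusted p of 0.374, 0.0928 and 0.754).

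Of the KRAB genes chosen for a role beside ZNF91, ZNF268 rose to 105 and 97.6 normalised read counts in KO libraries against 68.7 and 60.9 in parental libraries (log2 fold change 0.64, limma adjusted p = 0.045). ZNF274, which recruits SETDB1 to the 3′ ends of ZNF genes, gave 95.5 and 75.8 in KO libraries against 76.7 and 60.9 in parental libraries (0.31, limma adjusted p = 0.396). The call of ZNF268 was lost without KO replicate 1 or 2 (limma adjusted p of 0.118 and 0.0931) and without parental replicate 1 or 2 (0.128 and 0.324).

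Of the 5 most abundant ZNF genes, ZNF664 and ZNF638 fell, while 46.9% of the other protein-coding genes at 400 or more were lower. ZNF121 had 1623 and 1377 normalised read counts in KO libraries against 1697 and 1946 in parental libraries (log2 fold change -0.28, limma adjusted p = 0.158). ZNF146 (OZF), a protein made almost only of fingers, had 1321 and 1193 against 1303 and 1539 (-0.17, limma adjusted p = 0.429). ZNF664 had 938 and 798 against 1149.6 and 1287 (-0.49, limma adjusted p = 0.0104), and ZNF644, which brings the methyltransferase G9a to chromatin, 888 and 746 against 1007 and 1052 (-0.34, limma adjusted p = 0.103). ZNF664 lost its call after centring (limma adjusted p = 0.131) and without KO replicate 2, parental replicate 1 or parental replicate 2 (0.0586, 0.171 and 0.427).

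On chromosome 19 lay 91 of the 263 ZNF genes (34.6%, against 6.07% of the other protein-coding genes). Of these 11 fell (12.1%) and 8 rose (8.79%) with a median of -0.05, against 27 and 14 of 172 on other chromosomes with a median of -0.15. The shares over all genes tested were 25.1% lower and 3.77% higher. Calls among the other genes of chromosome 19 were not counted. After centring, 9 of the 91 were lower and 27 higher. On chromosome 19, 14 fell and 6 rose without KO replicate 1, 6 and 9 without KO replicate 2, 5 and 3 without parental replicate 1, and 4 and 5 without parental replicate 2. The genes were grouped by position after the values were seen. With gaps of at most 500 kb and at least 5 genes, 10 clusters held 93 of the ZNF genes. The largest, 25 genes on chromosome 19 from 57191500 to 58481230, held 3 lower and 2 higher genes, ZNF134 and ZNF8 being the higher ones, with a median of 0.07, and 1 lower and 11 higher after centring. The call of ZNF8 was lost without KO replicate 1 (limma adjusted p = 0.267), parental replicate 1 (0.112) or parental replicate 2 (0.453). A cluster of 15 genes from 51571298 to 53458261, which holds ZNF480 and ZNF845, had 1 lower and 2 higher genes with a median of -0.07, and 1 lower and 4 higher after centring.

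The cluster with the lowest median was 7 genes on chromosome 19 from 55576770 to 56160893. ZNF581, ZNF524, ZNF580 and ZNF865 fell there, and its median was -1.13. ZNF579 gave 168 and 168 normalised read counts in KO libraries against 156 and 156 in parental libraries (log2 fold change 0.11), ZNF787 gave 251 and 207 against 175 and 169 (0.40), and ZNF444 gave 97.0 and 90.1 against 92.9 and 90.2 (0.03), none of them called. The 4 that fell are all annotated on the plus strand. So are ZNF444 and U2AF2, which were not called, EPN1, which fell, and CCDC106, which rose. Of the other protein-coding genes in the interval at the level of 50, EPN1 fell (-0.47) and U2AF2 (-0.09) and FIZ1 (0.23) were not called. Under that level, CCDC106 rose (1.499, with 16.8 and 10.9 in KO libraries against 6.73 and 2.44 in parental libraries). The calls of EPN1 and CCDC106 were lost without KO replicate 2 (limma adjusted p of 0.0708 and 0.201) and without parental replicate 2 (0.237 and 0.365), that of EPN1 also without parental replicate 1 (0.428) and that of CCDC106 without KO replicate 1 (0.370). ZNF580 and ZNF581 share 407 exon bases on the same strand in GENCODE release 29, which is 15.1% of the exon bases of ZNF580 and 23.4% of those of ZNF581, and 122 bases with CCDC106, so reads of these 3 genes cannot be told apart there. ZNF524 shares 14.1% of its exon bases with FIZ1 on the opposite strand, and the use of strand in counting is not given in the sources used here. The cluster was picked for its median.

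The TSS libraries, a second set from the same parental RNA, gave the ZNF genes nearly the same levels. The median difference of mean log2 value, TSS minus parental RNA-seq, was -0.07 for the 263 genes (range -0.83 to 0.40) and -0.11 for the other protein-coding genes. Of the 38 genes called lower, 34 had both KO libraries below both TSS libraries, and all 22 called higher had both KO libraries above both. The TSS libraries are no further biological samples. The genes had been called against libraries of the same RNA, so these counts add no support, and the share over all genes was not computed. In the authors' deposited table, which compares parental with KO cells and so runs parental over KO, 63 of the 263 genes had an adjusted p under 0.05, 26 of them higher in KO and 37 higher in parental cells. The share of all genes called in that comparison was not computed, so the count is a description.

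Of 16 co-repressor partners of KRAB proteins 3 (18.8%) fell and none rose (median -0.27), against 25.1% lower over all genes tested and a median of -0.28 in the other protein-coding genes. The number called lower rose without KO replicate 1, stayed the same without KO replicate 2 and dropped without parental replicate 1 or 2. SUMO2, the modifier joined to TRIM28 and its partners, had 745 and 631 normalised read counts in KO libraries against 1714 and 1672 in parental libraries (log2 fold change -1.30, limma adjusted p = 7.1e-15). TRIM28 had 777 and 664 in KO libraries against 1338 and 1443 in parental libraries (-0.95, limma adjusted p = 4.61e-08), and CBX3, a heterochromatin protein, fell by 0.62. CBX3 lost its call without parental replicate 1 or 2 (limma adjusted p of 0.0842 and 0.254), and after centring 3 of the 16 were lower and 3 higher. SETDB1 gave 251 and 257 in KO libraries against 306 and 364 in parental libraries (-0.39, limma adjusted p = 0.109). Of the HUSH silencing complex and MORC2, FAM208A (TASOR) fell by 0.65 and the other 3 were not called, a median of -0.27 over the 4. FAM208A lost its call without KO replicate 2, parental replicate 1 or parental replicate 2 (limma adjusted p of 0.240, 0.122 and 0.214).

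Of 38 ZBTB genes 6 fell and 1 rose (median -0.26), ZBTB18 with 86.3 and 74.4 normalised read counts in KO libraries against 236 and 263 in parental libraries (log2 fold change -1.62) and ZBTB42 with -1.09. Of 20 ZSCAN and ZKSCAN genes ZSCAN2 rose (0.89) and ZSCAN22 fell (-0.63), with a median of 0.04. Of 11 ZFP genes none was called in limma or edgeR and none had an unadjusted p under 0.05 (median -0.17), while 1 was called lower without KO replicate 1, and ZFP36, an RNA-binding protein with fingers of another type and the most abundant of them, gave 846 and 774 in KO libraries against 711 and 696 in parental libraries (0.20). Of 21 KLF and SP genes 4 fell and 3 rose (median -0.08), KLF6 with -1.08 and KLF10 with -0.62. Over all genes tested 25.1% were lower and 3.77% higher. After centring, 4 ZBTB genes were lower and 6 higher, no ZSCAN or ZKSCAN gene was lower and 7 were higher, no ZFP gene was lower and 3 were higher, and 3 KLF and SP genes were lower and 8 higher. The ZBTB counts were 9 lower without KO replicate 1, 4 without KO replicate 2, 3 without parental replicate 1 and 2 without parental replicate 2, with none higher in any of these fits. The KLF and SP counts were 4 lower and none higher without KO replicate 1, 3 and 1 without KO replicate 2, 1 and none without parental replicate 1, and 2 and 1 without parental replicate 2. ZSCAN and ZKSCAN genes had 2 lower and 1 higher without KO replicate 1, none and 2 without KO replicate 2, and none and 1 without parental replicate 1, and the same without parental replicate 2. The calls of ZBTB42, ZSCAN2, ZSCAN22 and KLF10 were lost without parental replicate 1 (limma adjusted p of 0.0722, 0.143, 0.0681 and 0.109), those of ZSCAN22 and KLF10 without parental replicate 2 (0.527 and 0.254), and that of ZSCAN22 without KO replicate 2 (0.266). The medians of these lists were not tested against that of the ZNF genes, and all of these libraries are the same 4.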

How the data were processed

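One table of 14574 genes was used, with 2 KO and 2 parental RNA-seq libraries and 2 TSS libraries of reads of 150 bases. Its signal values are, from the values themselves, gene read counts that the authors deposited divided by 1 size factor per library, called normalised read counts here. In each library 100% of them came to whole numbers of reads (tolerance 0.001), so the reads were recovered. The deposited comparison, per the file headers, gives a log2 fold change with its standard error, a linear fold (ratio), a test score, p-values, and adjusted p-values also as −log10. STAR 2.6, RSEM, SAMtools, DESeq2 and GRCh38 come from the submitters' processing notes. Which annotation release and strand setting were used is not given in the sources used here. Estimated counts can split reads between paralogs.

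The table held 0 columns of samples outside the series. Since the values are normalised, log2(value + 1) was modelled with limma-trend (limma 3.58.1 in R 4.3.3) over the 14561 genes that reached a value of 1 in 2 or more RNA-seq libraries, two-sided, with Benjamini-Hochberg adjustment over all of them and a call at 0.05. With infinite prior degrees of freedom, limma took the spread of a gene from the trend over level. Exact permutation of 2 against 2 libraries cannot go below p = 0.333. edgeR 4.0.16 on the recovered reads was an alternative. Both were tested on simulated data. Reads are not counted by molecule, so floors cover counting error only.

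The members, the lists and the tests were chosen with earlier results of these data known. The start class, the level bins and the position clusters were set after values were seen. Named genes were the 8 largest falls and rises among called members whose KO and parental libraries did not overlap, the 5 most abundant members, 16 members with known roles, the 2 genes on each side of the level threshold, of each other list the 2 lowest adjusted p (or, with no call, the most abundant gene), and LARP1. The genes of a start class or cluster, KRT8, KRT18, CDH1, CBX3, SETDB1 and the genes of the closing section were named outside that rule. Coordinates, exons and coding sequences are from GENCODE release 29 (GRCh38), matched for all 263 members. C2H2 fingers were counted as C, 2 to 4 residues, C, 12 residues, H, 3 to 5 residues, H. Starts are from RefSeq (GRCh38.p14), matched for 226 members. Alternatives were 2 other scalings, edgeR, no filter, pseudocounts of 0.1 and 5, no trend, a replicate block, the TSS libraries as parental, each library left out, and other level thresholds.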

Additional observations from a re-analysis of the deposited data

How the results depend on the processing

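The difference of medians, ZNF minus other protein-coding genes, stayed between 0.16 and 0.21 under all the alternatives. The counts and the sign of the ZNF median did not. The median of -0.10 was 0.21 after centring, 0.19 with TMM factors and 0.0404 without KO replicate 2, and ran from -0.20 to 0.0404 with 1 library left out. Against 38 lower and 22 higher ZNF genes, centring gave 23 and 71, TMM factors 23 and 70, limma without trend 11 and 7, and a level of at least 100 gave 31 and 14 of 171 genes. The replicate numbers did not pair the libraries (correlation of same-number deviations -0.02), and with a replicate block 24 were lower and 13 higher. With 1 library left out, 10 to 51 were lower and 4 to 21 higher: without KO replicate 1 there were 51 and 12, without KO replicate 2 18 and 21, without parental replicate 1 15 and 4, and without parental replicate 2 10 and 8. Of the 38 lower calls 9 and of the 22 higher calls 4 were kept under all 13 alternatives. Signs turned after centring and with TMM factors for ZNF121 (0.029 and 0.0151), ZNF146 (0.14 and 0.12), ZNF106 (0.24 and 0.22), ZNF143 (0.29 and 0.28), ZNF148 (0.30 and 0.29), ZNF217 (0.12 and 0.10) and ZNF24 (0.19 and 0.17), and after centring for ZNF628 (0.0177). With the TSS libraries as parental they turned for ZNF146 (0.0117), ZNF143 (0.0869) and ZNF628 (0.16). With 1 library left out, the log2 fold changes of 8 genes took either sign: ZNF106 ran from -0.157 to 0.00469, ZNF143 from -0.337 to 0.303, ZNF148 from -0.0904 to 0.0772, ZNF217 from -0.496 to 0.105, ZNF24 from -0.299 to 0.0552, ZNF724 from -0.266 to 0.375, ZNF430 from -0.108 to 0.181 and COL1A1 from -0.303 to 1.18. None of these genes was called with all libraries. The causes were not tested. Members near 50 rest on few reads, which limits what could be detected.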

Other observations

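Below the level of 50 normalised read counts lay 106 further protein-coding ZNF genes, 62 of them on chromosome 19. Of these 14 (13.2%) rose in the KO pool and 5 (4.72%) fell by limma, with a median log2 fold change of 0.05. Over all genes tested 3.77% were higher and 25.1% lower. After centring, 23 (21.7%) were higher and 1 (0.943%) lower, against 14.6% and 16.2% over all genes tested. Of the 14 that rose, 13 lie on chromosome 19. The genes named next were chosen after their values were seen, as the 5 with a log2 fold change above 3.

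ZNF234 had 41.3 and 31.4 normalised read counts (54 and 46 reads) in the KO libraries, against 0 reads in both parental libraries and in both TSS libraries. Against a floor of 3 reads over the parental group, its mean was at least 18.9-fold higher in the KO. ZNF615 had 11.5 and 16.4 in the KO libraries (15 and 24 reads) against 0 reads in both parental libraries and both TSS libraries, and was at least 7.24-fold higher on the same floor. These genes were detected in both KO libraries and in none of the 4 libraries of parental RNA.

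ZNF266 had 63.4 and 52.6 normalised read counts in the KO libraries against 2.69 and 0 in the parental libraries, and 0.897 and 1.27 in the TSS libraries (limma adjusted p = 8.79e-18). ZNF233 had 19.1 and 17.1 in the KO libraries against 0 and 1.22 in the parental libraries (limma adjusted p = 1.28e-05). ZNF419 had 37.4 and 40.3 in the KO libraries against 2.69 and 4.88 in the parental libraries (limma adjusted p = 5.77e-09). All 5 lie on chromosome 19, and each had at most 4 reads in any parental RNA-seq library. Of the genes that fell, ZNF648 on chromosome 1 had 0 and 2.73 in the KO libraries against 12.1 and 17.1 in the parental libraries (limma adjusted p = 0.000491). With the number of KO clones not stated in the labels, a difference between the genotypes and a difference between clones cannot be told apart, for these genes or any other compared here.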
